A study of Mus musculus with 16 samples.

Results

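The growth hormone (GH), STAT5 and IGF1 axis was described through 9 genes of the 24357 genes tested on arrays of mouse liver: Ghr, Prlr, Stat5a, Stat5b, Igf1, Igfals, Socs2, Cish and Bcl6. They were chosen by name for their place in the pathway, and each was read from the probes that carry its name in the array files. All 9 genes passed the filter on dim probes, which asked for a signal well above background on at least 3 of the 16 arrays. The 9 genes had 18 probes, all of them well above background on 16 arrays, and the probe with the highest mean stands for a gene unless another is named.

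All animals were male BALB/c mice that entered the 4 weeks of treatment at an age of 6 to 8 weeks, with 1 array of whole liver RNA from each. WT control mice (n = 4) and Lcn2-/- control mice (n = 3) received corn oil. WT CCl4 mice (n = 5) and Lcn2-/- CCl4 mice (n = 4) received 0.5 ml/kg of CCl4 in corn oil 2 times per week for 4 weeks, and were killed 48 h after their final injection. CCl4 is a solvent whose breakdown by hepatocyte P450 enzymes makes free radicals, and repeated doses lead to liver fibrosis. Lcn2 encodes lipocalin 2, a secreted protein, and the mutant line was made on a mixed 129/Ola and C57BL/6 background and crossed back to BALB/c. The study asked how loss of Lcn2 changes the liver under this injury.

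GH reaches the liver in pulses from the pituitary and binds GHR on hepatocytes, which activates the kinase JAK2 and then STAT5B, the main STAT5 form of hepatocytes. Phosphorylated STAT5 enters the nucleus and drives Igf1, the circulating growth factor, Igfals, the acid-labile subunit that keeps IGF1 in a long-lived serum complex, and Socs2 and Cish, which encode inhibitors that feed back on the receptor. BCL6 is a repressor that competes with STAT5 for DNA, and PRLR is the prolactin receptor, a relative of GHR. Pulsed GH in males and steadier GH in females give the mouse liver its sex-biased gene expression, so that male-biased genes fall and female-biased genes rise when pulsed GH signalling is lost.

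Between 51.6% and 60.9% of gene spots were well above background on an array, and the number of saturated spots was 0. Values below are log2 of the quantile-normalized signal, which can be compared between arrays for 1 probe but not between probes. The deleted gene fitted the labels: Lcn2 lay between 10.47 and 12.25 on the Lcn2-/- arrays and between 13.79 and 17.57 on the WT arrays. The arrays sat on 2 slides. Slide 1 held all 7 controls and WT CCl4 1, and slide 2 held the other 8 CCl4 arrays, so slide and CCl4 separate through WT CCl4 1 alone. All 8 hepatocyte markers were measured, as the labelled tissue should give, and 0 of 8 passed the test described below in either CCl4 response. All 6 stellate cell markers rose in both, their summed log2 level going from 13.61 to 15.45 on WT controls up to 16.44 to 17.43, and from 12.89 to 13.13 on Lcn2-/- controls up to 16 to 16.59. Of the other lists, 1 of 6 macrophage markers rose and 1 fell in WT, 2 of 5 neutrophil and 1 of 5 cholangiocyte markers rose, 1 of 5 endothelial markers rose and 1 fell, and 2 of 6 lymphocyte markers fell. In Lcn2-/-, 1 macrophage, 1 cholangiocyte and 1 endothelial marker rose and 1 lymphocyte marker fell. Adipose, pancreas and muscle had 1 of 4, 2 of 5 and 1 of 4 markers bright enough to test. Of these, Cfd, an adipose marker, was at least 2.44-fold lower under CCl4 in WT (limma adjusted p 0.000348), where it was not well above background on any of the 5 CCl4 arrays, and Amy2a5, a pancreas marker, rose by 1.16 (0.0133), and in Lcn2-/- 0 passed. In myeloid markers WT control 3 and Lcn2-/- control 3 stood apart from the other 5 controls. Marco, a macrophage gene, measured 15.38 and 14.74 on them against 9.17 to 12.27, and S100a8, a neutrophil gene, 12.66 and 13.16 against 9.34 to 10.5. Neutrophil gene Mpo was at 12.15 on Lcn2-/- control 3, and stellate gene Col1a1 at 13.98 on WT control 3 against 11.07 to 12.03 on the other WT controls. Without these 2 arrays the number of axis genes past the test described below stayed at 1 in WT, Igfals at −1.12 (limma adjusted p 0.0302), and at 0 in the other comparisons, while of the sex-biased lists given further down 9 male-biased genes fell in WT and 7 in Lcn2-/- (9 and 4 with all arrays), and 8 and 5 female-biased genes rose (7 and 5 with all arrays).

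In RNA of whole liver, fewer cells of a type and less RNA per cell cannot be told apart, and the part of cell composition in the results below was not tested.

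In WT liver, Igfals fell under CCl4 and was the only 1 of the 9 genes to pass the test, limma with Benjamini-Hochberg adjustment over all 24357 genes and a threshold of 0.05. Over all genes, 8.8% passed as lower and 8.01% passed as higher in this comparison. In Lcn2-/- liver, 0 of 9 passed under CCl4, against 6.57% of all genes passing as higher and 5.61% as lower, and 0 of 9 had an unadjusted p under 0.05, against 27% of all genes. The median difference of the 9 genes was −0.39 in WT and −0.21 in Lcn2-/-, with 7 and 6 of 9 lower, while the median of all genes was −0.0315 and −0.0226. Lcn2-/- and WT livers differed in 0 of 9 genes under CCl4 and in 0 of 9 among controls, and the response differed between genotypes in 0 of 9.

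**Figure D1:**
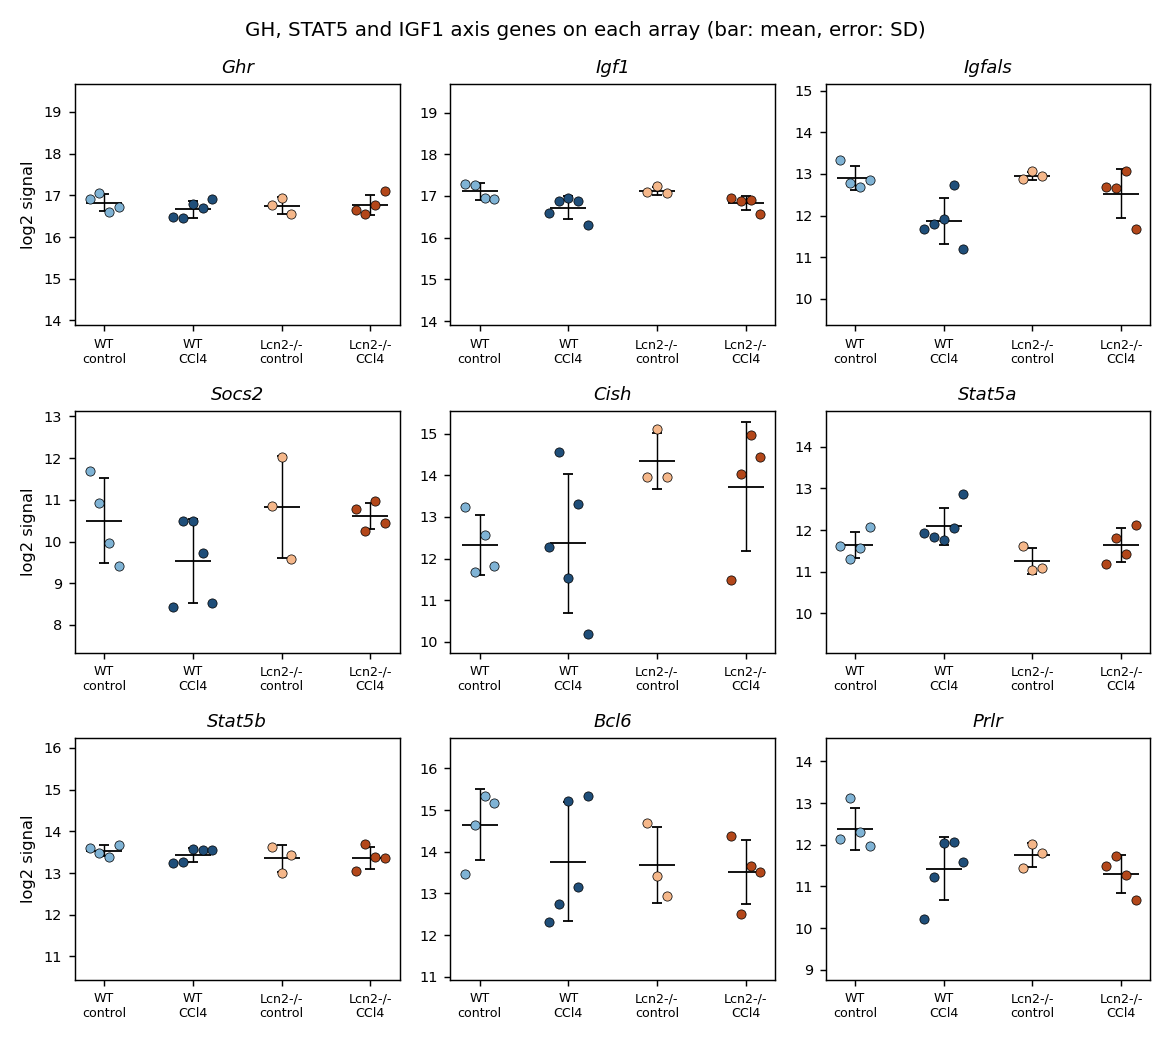
Log2 signal (vertical axis, the same span of 5.8 units for each gene) of the 9 genes on every array, by group, with 1 point per animal, a bar at the mean and an error bar of 1 SD. Igfals is lower on 4 of 5 WT CCl4 arrays than on every WT control, and Cish, Bcl6 and Socs2 scatter widely within groups.

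The receptor came first. Ghr has 2 kinds of transcript in mice, a long one for the membrane receptor and a short one for the soluble GH-binding protein, and the array holds a probe for each. The first 30 of the 60 bases of both probes are shown because they tell the transcripts apart.
Ghr long transcript, chr15:3268107-3268166, mm9, minus strand: atctctttcatgcaggagagacagtgaaaa
Ghr short transcript, chr15:3277543-3277602, mm9, minus strand: cttgtgggcacctgcattcatatgcacata

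The long transcript's probe measured 16.91, 17.06, 16.6 and 16.73 in WT control and 16.48, 16.45, 16.79, 16.69 and 16.92 in WT CCl4. It measured 16.78, 16.94 and 16.55 in Lcn2-/- control and 16.65, 16.55, 16.76 and 17.11 in Lcn2-/- CCl4. The groups overlapped throughout. The CCl4 difference was −0.16 (SE 0.146, 95% interval −0.48 to 0.16, limma adjusted p 0.5) in WT and 0.01 (SE 0.167, interval −0.35 to 0.37, limma adjusted p 0.979) in Lcn2-/-.

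The short transcript's probe fell under CCl4 in both genotypes. It measured 16.6, 16.46, 16.38 and 16.63 in WT control and 15.97, 15.76, 15.97, 16.11 and 16.05 in WT CCl4. Lcn2-/- controls measured 16.56, 16.56 and 16.55 and Lcn2-/- CCl4 arrays 15.7, 15.9, 16.12 and 16.11. No CCl4 array reached a control array in either genotype. In WT it fell by 0.54 (SE 0.11, limma adjusted p 0.00385 over 33014 probes, where 7.71% of all probes passed as lower). In Lcn2-/- it fell by 0.6 (SE 0.125, limma adjusted p 0.00687, where 4.92% passed as lower). The exact permutation p values were 0.00794 and 0.0286, the smallest that 126 and 35 splits allow. Leaving out each array in turn kept both calls in 16 of 16 fits. With slide as a block neither call held, at differences of −0.54 and −0.59 (limma adjusted p 0.129 and 0.232), and in the fit of the Lcn2-/- groups alone the adjusted p was 0.0632.

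The changes of the 2 probes were compared next. The long probe's log2 signal minus the short probe's was 0.31 ± 0.211 (SD) in WT control and 0.69 ± 0.152 in WT CCl4, a shift of 0.39 (two-sided exact permutation p 0.0397, n = 4 and 5). In Lcn2-/- it was 0.2 ± 0.197 in controls and 0.81 ± 0.194 under CCl4, a shift of 0.61 (exact permutation p 0.0286, n = 3 and 4, the smallest of 35 splits). The shift between genotypes was 0.12 under CCl4 (exact permutation p 0.333, n = 4 and 5) and −0.1 in controls (exact permutation p 0.514, n = 3 and 4). These 4 tests were not adjusted for each other, and their number of arrays leaves little room. Without any 1 of WT control 1, 3 or 4, or any 1 WT CCl4 array, the WT shift lay between 0.32 and 0.43 with an exact permutation p of 0.0571 to 0.0857. Without any 1 Lcn2-/- array the Lcn2-/- shift lay between 0.5 and 0.7, where the smallest p that the splits allow is 0.0667 or 0.1.

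**Figure D2:**
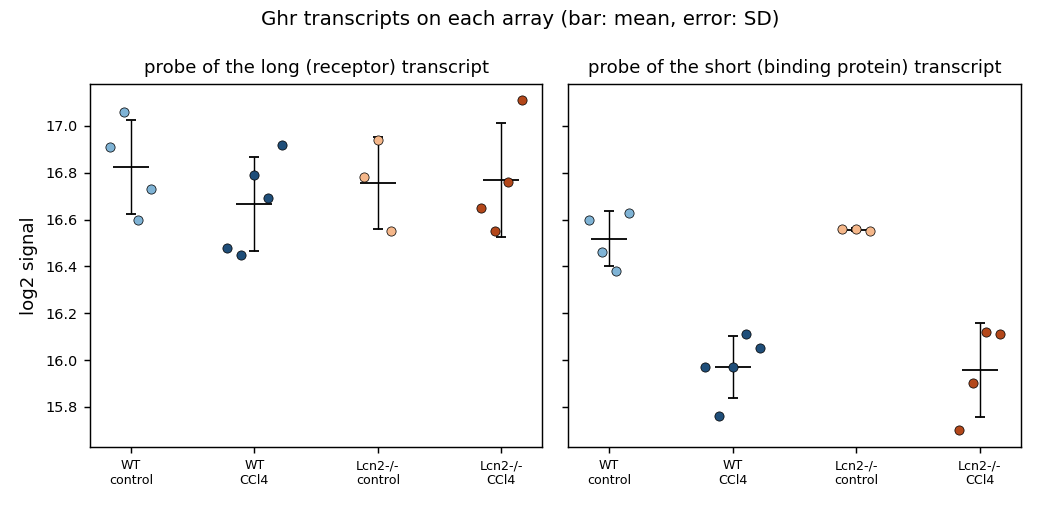
Log2 signal (shared vertical axis) of the probes for the long and the short Ghr transcript on every array, by group, with 1 point per animal, a bar at the mean and an error bar of 1 SD. The short transcript's points under CCl4, from 15.7 to 16.12, all lie below its control points, from 16.38 to 16.63, while the long transcript's groups overlap.

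Prlr is the other receptor of the set. It measured 12.14, 13.11, 12.3 and 11.96 in WT control and 10.21, 11.23, 12.03, 12.07 and 11.59 in WT CCl4, so that 3 of 5 CCl4 arrays lay below every control. The Lcn2-/- values were 11.45, 12.01 and 11.81 in controls and 11.5, 11.72, 11.28 and 10.67 under CCl4. The difference was −0.95 in WT (SE 0.357, limma adjusted p 0.0838) and −0.46 in Lcn2-/- (SE 0.407, limma adjusted p 0.499), and neither passed. A further Prlr probe gave −0.73 (limma adjusted p 0.0817) and −0.37. With the mean of both probes, the WT difference was −0.84 and passed (limma adjusted p 0.0371), and with slide as a block it was −2.17 and passed (0.0153), an estimate that rests on WT CCl4 1, the lowest array.

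The transducers Stat5a and Stat5b showed no change that passed. Stat5b lay between 13.39 and 13.67 on WT controls and between 13.24 and 13.58 on WT CCl4 arrays. On Lcn2-/- controls it lay between 12.99 and 13.62, and with CCl4 between 13.05 and 13.69. The CCl4 difference of Stat5b was −0.1 (interval −0.43 to 0.23, limma adjusted p 0.711) in WT and 0.02 (interval −0.35 to 0.4, limma adjusted p 0.949) in Lcn2-/-. Its 4 groups cover each other, and its further probe gave −0.11 and −0.03.

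Stat5a measured 11.61, 11.3, 11.58 and 12.07 in WT control and 11.92, 11.83, 11.77, 12.04 and 12.87 in WT CCl4. In Lcn2-/- it measured 11.62, 11.05 and 11.09 in controls and 11.19, 11.82, 11.42 and 12.12 under CCl4. Stat5a was the single gene of the 9 with a higher mean under CCl4 by over 0.1 in both genotypes, by 0.45 ± 0.25 (SE) for WT (limma adjusted p 0.25) and 0.39 ± 0.285 for Lcn2-/- (0.413). The groups overlapped in each genotype. Array WT CCl4 5, at 12.87, stood above the other 4 of its group, which reached 12.04.

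Igf1, the main growth factor target, measured 17.29, 17.27, 16.95 and 16.93 in WT control and 16.6, 16.87, 16.96, 16.87 and 16.3 in WT CCl4. Its levels in Lcn2-/- were 17.09, 17.24 and 17.06 in controls and 16.95, 16.87, 16.91 and 16.58 under CCl4. In WT 4 of 5 CCl4 arrays lay below every control, and in Lcn2-/- all 4 did. The difference was −0.39 in WT (SE 0.144, limma adjusted p 0.0811) and −0.3 in Lcn2-/- (SE 0.164, limma adjusted p 0.254), so that neither passed over all genes. Taken alone, the exact permutation p was 0.0476 in WT (n = 4 and 5) and 0.0286 in Lcn2-/- (n = 3 and 4), the latter the smallest that 35 splits allow. Igf1 was the only gene of the 9 whose groups did not overlap in the Lcn2-/- response, against 24.8% of all genes, and 0 of 9 were so in the WT response, against 17.4%. The WT difference of Igf1 passed under scaling to the 75th percentile, at −0.65 (limma adjusted p 0.00709), where the median of all genes stood at −0.16, and also under normexp background correction, at −0.41 (0.0478), and with array weights, at −0.37 (0.0283).

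The other 4 Igf1 probes gave −0.37, −0.31, −0.25 and −0.17 in WT and −0.27, −0.51, −0.04 and 0.49 in Lcn2-/-. None of these passed, and no probe's shift against the main one passed the exact permutation test, with p values from 0.0571 to 0.563 over 8 tests. The probe of a second Igf1 transcript (chr10:87378456-87378515, mm9, plus strand) was higher on all 3 Lcn2-/- controls than on all 4 WT controls, with a difference of 0.83 (SE 0.219). It did not pass over all probes (limma adjusted p 0.151), and the main Igf1 probe differed by 0.02. Under CCl4 the second transcript's probe was also higher in Lcn2-/- than in WT, by 0.63 (SE 0.192, limma adjusted p 0.194). There 3 of 4 Lcn2-/- arrays lay above all 5 WT arrays. The main probe differed by 0.11 under CCl4 and the others by 0.72, 0.26 and 0.11, and none passed.

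Igfals was the only 1 of the 9 genes whose highest-mean probe passed under CCl4. It measured 13.33, 12.78, 12.68 and 12.85 in WT control and 11.69, 11.81, 11.92, 12.73 and 11.2 in WT CCl4. The Lcn2-/- arrays gave 12.87, 13.06 and 12.95 in controls and 12.68, 12.67, 13.06 and 11.69 under CCl4. On 4 of 5 WT CCl4 arrays Igfals lay below every WT control, while WT CCl4 4 lay within their range, and 3 of 4 Lcn2-/- CCl4 arrays lay below every Lcn2-/- control. In WT it fell by 1.04 (SE 0.289, 95% interval −1.67 to −0.41, a 2.06-fold decrease, limma adjusted p 0.0237, exact permutation p 0.0238 over 126 splits). The Lcn2-/- difference was −0.44 (SE 0.329, interval −1.15 to 0.28, limma adjusted p 0.424). The difference between these responses was 0.6 (SE 0.438, limma adjusted p 1).

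The WT call for Igfals was kept in 12 of 16 fits that left out 1 array. It was lost without WT control 1 (limma adjusted p 0.0896), WT control 2 (0.0504), WT CCl4 1 (0.0516) or WT CCl4 5 (0.0537), with differences from −1.25 to −0.87 over the 16 fits. With slide as a block the difference was −1.22 (limma adjusted p 0.183), and within slide 1 it was −1.22. Both estimates rest on WT CCl4 1, the only CCl4 array of slide 1. With replicate number as a block the difference was −0.87 (limma adjusted p 0.0913).

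**Figure D3:**
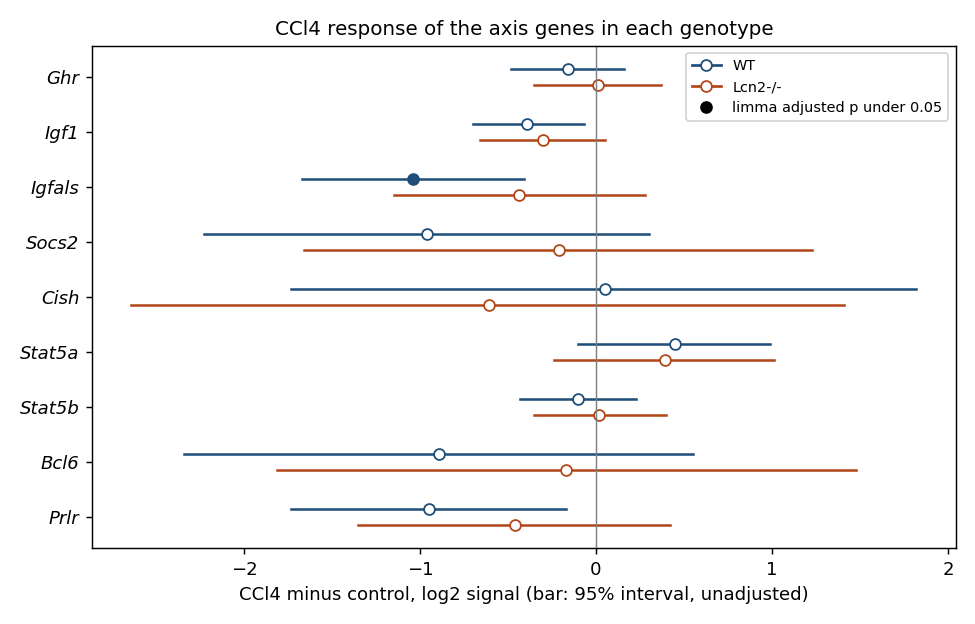
Difference in log2 signal, CCl4 minus control (horizontal axis), for each of the 9 genes in WT and Lcn2-/-, with unadjusted 95% intervals from limma. The filled point marks a limma adjusted p under 0.05 over 24357 genes, and Igfals in WT, at −1.04, is the only one filled.

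STAT5 dimers bind a palindrome written TTCNNNGAA, in which N is any base, so the sequence before each gene's start was searched for it. A palindrome of this kind reads the same on both strands and was counted once. The window was the 250 bases before a start, and the bases after it were not searched. Of 27025 genes with RefSeq promoter sequence (GRCm38.p6), 8.13% held it in a window, and of 32851 starts 7.02% did. Among the axis genes, 8 of 9 were in that table and 3 held it, Igfals, Bcl6 and Prlr, and the letters were not in the window of the other 5. The matches are shown with 10 bases on each side and the motif in capitals, because Igfals is the gene that fell and the product of Bcl6 competes with STAT5 for DNA.
Igfals, first start, 236 bases before it, chr17:24877598-24877626, plus strand: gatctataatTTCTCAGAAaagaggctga
Igfals, second start, 58 bases before it, chr17:24878163-24878191, plus strand: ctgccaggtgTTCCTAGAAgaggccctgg
Prlr, second start, 110 bases before it, chr15:10223786-10223814, plus strand: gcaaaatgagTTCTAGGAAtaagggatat
Bcl6, first start, 118 bases before it, chr16:23988952-23988980, minus strand: agcaaattagTTCTCAGAAttccagaggc
Bcl6, second start, 168 bases before it, chr16:23981433-23981461, minus strand: aggccgcggcTTCCTGGAAagttacttct
Bcl6, second start, 122 bases before it, chr16:23981387-23981415, minus strand: ggcaggagtgTTCTGTGAAatccttagag
Bcl6, second start, 88 bases before it, chr16:23981353-23981381, minus strand: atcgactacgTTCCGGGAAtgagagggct

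The first Igfals match and the first Bcl6 match hold the same 9 letters. Socs2 was the axis gene not in the table. Of the lists given further down, the letters were found for 0 of 9 male-biased genes in the table and for 2 of 12 female-biased genes (16.7%), Sult3a1 and A1bg, both too dim to be tested. A match is a description of the sequence and was not set against binding.

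The feedback inhibitors varied widely between animals. Socs2, which encodes a suppressor of GHR signalling, measured 11.7, 10.93, 9.96 and 9.41 in WT control and 8.44, 10.5, 10.49, 9.73 and 8.53 in WT CCl4. It measured 10.86, 12.03 and 9.59 in Lcn2-/- control and 10.79, 10.26, 10.96 and 10.45 in Lcn2-/- CCl4. The 2 lowest arrays of the 16 were WT CCl4 1 and WT CCl4 5, yet the groups overlapped in both genotypes. The difference was −0.96 in WT (SE 0.581, limma adjusted p 0.286) and −0.21 in Lcn2-/- (SE 0.661, limma adjusted p 0.872), and all 3 Socs2 probes gave WT differences from −1.01 to −0.96.

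Cish, which encodes a further inhibitor that docks on the receptor, measured 13.23, 11.67, 12.56 and 11.82 in WT control and 12.27, 14.56, 11.53, 13.3 and 10.18 in WT CCl4. Its Lcn2-/- values were 13.95, 15.11 and 13.96 in controls and 11.48, 14.02, 14.97 and 14.43 under CCl4. By mean level the order was Lcn2-/- control at 14.34 ± 0.669, Lcn2-/- CCl4 at 13.73 ± 1.55, WT CCl4 at 12.37 ± 1.67 and WT control at 12.32 ± 0.717 (SD), and neighbours in that order did not differ beyond their spread. The CCl4 difference was 0.05 in WT (SE 0.815, limma adjusted p 0.979) and −0.61 in Lcn2-/- (SE 0.928, limma adjusted p 0.719).

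Bcl6 measured 13.46, 14.64, 15.33 and 15.18 in WT control and 12.32, 12.74, 15.23, 13.16 and 15.34 in WT CCl4. The WT CCl4 arrays fell apart into 2 near the top of the controls and 3 below all of them. In Lcn2-/- Bcl6 measured 14.69, 13.41 and 12.93 in controls and 14.38, 12.51, 13.65 and 13.51 under CCl4. The difference was −0.89 in WT (SE 0.663, limma adjusted p 0.392) and −0.17 in Lcn2-/- (SE 0.755, limma adjusted p 0.916).

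The SD within groups was 1.32 for Cish, 1.07 for Bcl6 and 0.935 for Socs2, at percentiles 98.6, 96.7 and 94.8 of all genes, against a median of 0.299. Prlr had 0.569, Igfals 0.456 and Stat5a 0.391, while Stat5b, Ghr and Igf1 lay between 0.209 and 0.221, at percentiles 28 to 31.2. An unadjusted 95% interval for the CCl4 difference of Cish in WT thus ran from −1.73 to 1.82, against −0.7 to −0.07 for Igf1.

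Genes that vary between animals of 1 group can vary together, and this was measured over 36 pairs of the 9 genes as the correlation of deviations from the group means on 16 arrays, with 100000 permutations within groups. Igf1 and Socs2 moved together, with Pearson's r 0.78 (p 9e-04, adjusted 0.0324 over 36 pairs) and Spearman's rho 0.8 (p 0.00107, adjusted 0.0385). Without the 2 arrays farthest from the median of Igf1, r was 0.86. Within slide 1 it was 0.88 and within slide 2 it was 0.84, and leaving out each array in turn gave 0.75 to 0.83.

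Igf1 and Stat5a moved in opposite directions, with r −0.79 (p 0.00236, adjusted 0.0425) and rho −0.69 (p 0.00741, adjusted 0.133). Without the 2 farthest arrays r was −0.56, without WT CCl4 5 it was −0.64, and under scaling to the 75th percentile it was −0.36 (p 0.154). This relation thus rests in part on single arrays and on the scaling. Igf1 and Igfals had r 0.73 (adjusted p 0.092) and Cish and Bcl6 had r −0.65 (adjusted p 0.248). Of the 36 pairs, 2 passed by r and 1 by rho.

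**Figure D4:**
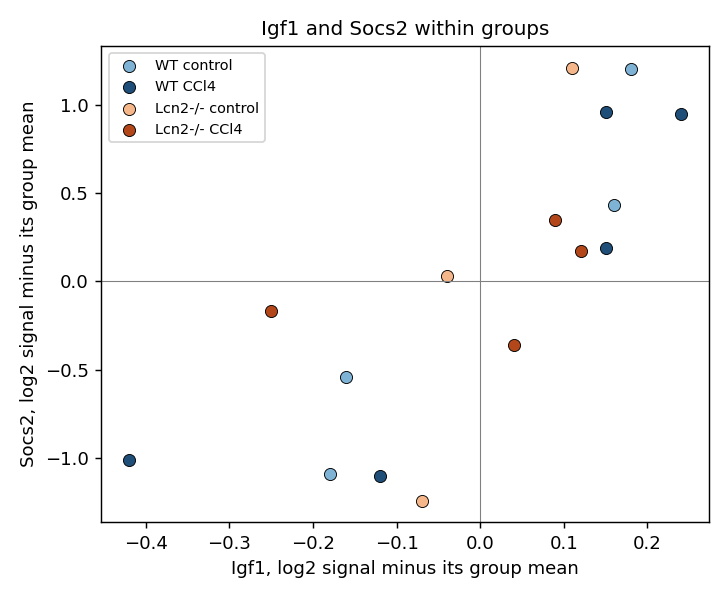
Log2 signal of Igf1 (horizontal axis) and Socs2 (vertical axis) on each array after the mean of its group was subtracted, coloured by group, 16 arrays. Arrays above their group's mean in Igf1 tend to be above it in Socs2, with r 0.78 and rho 0.8.

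The 3 genes whose pattern over 16 arrays was most like that of Igfals were Msx2, with a root mean square difference of 0.255 between centred log2 values, an intergenic probe of chromosome 6 at 0.255 and Gm11213 at 0.258. Igfals itself had a root mean square deviation of 0.601. Msx2, a homeobox gene, went from 7.22 ± 0.379 (SD) on WT controls to 6.26 ± 0.339 with CCl4. On Lcn2-/- arrays it went from 7.44 ± 0.246 to 6.89 ± 0.398. Since these genes were picked for a pattern like that of Igfals, which falls in WT, these values are a description with no test.

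Genotype was compared within each treatment. Under CCl4, 0 of 9 genes passed between Lcn2-/- and WT, against 0.636% of all genes, and 1 of 9 had an unadjusted p under 0.05, against 13.7%. That gene was Igfals, at 12.53 ± 0.583 in Lcn2-/- CCl4 (n = 4) and 11.87 ± 0.551 in WT CCl4 (n = 5), a difference of 0.65 (SE 0.289, limma adjusted p 0.342, exact permutation p 0.135). The groups of 0 of 9 genes were apart, against 5.66% of all genes. Socs2 differed by 1.08 (SE 0.581, limma adjusted p 0.434), Cish by 1.36 (SE 0.815, limma adjusted p 0.483) and Stat5a by −0.45 (SE 0.25, limma adjusted p 0.451). A Socs2 probe other than the main one gave 1.17 (limma adjusted p 0.366).

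Among controls, 0 of 9 genes passed between Lcn2-/- and WT, against 0.53% of all genes, and 1 of 9 had an unadjusted p under 0.05, against 8.3%. That gene was Cish, which was higher on all 3 Lcn2-/- controls, from 13.95 to 15.11, than on all 4 WT controls, from 11.67 to 13.23. The difference was 2.02 (SE 0.928, interval 0 to 4.04, 4.06-fold, limma adjusted p 0.587, exact permutation p 0.0571 with n = 3 and 4). Cish was the only gene of the 9 whose control groups were apart, against 9.64% of all genes. Bcl6, whose correlation with Cish did not pass, differed by −0.97 (SE 0.755, limma adjusted p 0.918).

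The responses of the genotypes to CCl4 differed in 0 of 9 genes, against 0.0534% of all genes, and 0 of 9 had an unadjusted p under 0.05, against 3.33%. Differences between the responses ranged from −0.66 for Cish (interval −3.35 to 2.03) to 0.75 for Socs2 (interval −1.17 to 2.67). Each of these counts of 0 stayed at 0 under every alternative that was run, array weights included.

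Further genes of the pathway were read from lists, which were chosen with earlier results of these data known. Of 23 genes of GH receptor signalling and feedback, 1 rose and 2 fell in WT, and 0 passed in Lcn2-/-. These are 4.35% and 8.7% of the list, against 8.01% and 8.8% of all genes, so that the WT counts are no more than the background. The median difference of the list was −0.02 in both. Irs2, an adaptor for insulin, IGF1 and GH signals, fell by 1.09 in WT (SE 0.202, limma adjusted p 0.00192), from 12.21 to 12.46 on the controls to 10.67 to 11.69 under CCl4. In Lcn2-/- it measured 11.79 to 12.31 on controls and 11.89 to 12.71 under CCl4, a difference of 0.27 (limma adjusted p 0.484).

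Under CCl4 Irs2 was higher in Lcn2-/- than in WT by 1.04 (SE 0.202, limma adjusted p 0.0343), with all 4 Lcn2-/- arrays above all 5 WT arrays, while the difference between the responses, 1.36, did not pass (limma adjusted p 0.42). The genotype call was lost in 9 of 16 fits without 1 array, with adjusted p from 0.0181 to 0.104. With replicate number as a block it was 0.91 (0.091), and within slide 2 it was 0.99 (0.168).

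Socs5, a SOCS family member, rose by 1.17 ± 0.376 (SE) with CCl4 in WT (limma adjusted p 0.0463) and Lyn, a Src family kinase, fell by 0.43 (SE 0.136, limma adjusted p 0.0448). Both sit at the threshold, and their calls were lost in 13 and 11 of 16 fits without 1 array, with adjusted p up to 0.123 and 0.111. In Lcn2-/- Socs5 differed by 0.47 (limma adjusted p 0.519) and Lyn by −0.42 (0.0913). Socs3 was the list's only promoter with the STAT5 letters, among 16 in the table.

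Of 9 genes for IGF1 carriers, receptors and their proteases, 2 rose in WT and 3 in Lcn2-/-, with 0 falling, against 8.01% and 6.57% of all genes that passed as higher, and the median difference was 0.56 and 0.94. Pappa, a protease that cleaves IGF binding proteins, was not well above background on any control array and was so on all 9 CCl4 arrays. It was at least 2.35-fold higher under CCl4 in WT and at least 1.09-fold higher in Lcn2-/-, set against the lowest signal counted as above background on each array. Pappa and Pappa2, a related protease that did not pass, entered the test only through the CCl4 arrays. Without these 2 genes, 1 of 7 rose in WT and 2 of 7 in Lcn2-/-, with medians of 0.4 and 0.68. Igfbp1, a carrier with high expression in fasted or stressed liver, rose by 2.47 in Lcn2-/- (SE 0.677, limma adjusted p 0.0285), from 10.86 to 13.12 on controls to 14 to 15.1. This call was lost without Lcn2-/- control 1 or 2 or Lcn2-/- CCl4 1 or 4, with adjusted p up to 0.147. The mean of Igfbp1 was 12.05 on Lcn2-/- controls and 14.52 on Lcn2-/- CCl4 arrays. In WT, where it did not pass, the mean was 13.24 on controls and 14.16 under CCl4.

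Igfbp3, the carrier that binds IGF1 together with the Igfals product, rose by 1.01 in Lcn2-/- (SE 0.215, limma adjusted p 0.00716). Its range went from 9.49 to 10.3 on controls to 10.64 to 11.36 under CCl4. The call was lost with slide as a block (limma adjusted p 0.125) and in the fit of the Lcn2-/- groups alone. In WT it lay between 9.92 and 10.55 on controls and between 10.31 and 10.74 under CCl4, so that the groups overlapped. Igf1r, the receptor of IGF1, rose by 0.61 ± 0.176 (SE) in the WT response (limma adjusted p 0.0283). Between the control groups Pappa passed in limma (adjusted p 0.0279), but neither group was above background, so no fold is given, and the call was lost under 75th percentile scaling (0.233), normexp (0.836) and the authors' log2 table (0.518).

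Of 13 male-biased genes tested of 15 listed, which depend on pulsed GH, 9 fell and 0 rose in WT and 4 fell and 0 rose in Lcn2-/-, where 8.8% and 5.61% of all genes passed as lower. The other 4 in WT and 9 in Lcn2-/- did not pass. In all, 13 and 12 of 13 were lower, with a median difference of −1.46 and −0.68. Hsd3b5, a male-specific steroid dehydrogenase, measured 17.87, 17.77, 17.14 and 17.78 in WT control and 11.48, 12.01, 14.64, 11.94 and 11.87 in WT CCl4. In Lcn2-/- it measured 17.57, 17.75 and 17.23 in controls and 11.52, 12.66, 15.37 and 15.86 under CCl4. Every CCl4 array lay below every control. In WT it fell by 5.25, a 38.2-fold decrease (SE 0.803, limma adjusted p 0.000452). The Lcn2-/- value fell by 3.67, a 12.7-fold decrease (SE 0.914, limma adjusted p 0.0173).

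Slco1a1, an organic anion importer, fell by 4.42 ± 0.71 (SE; limma adjusted p 0.000666) among WT mice, and its Lcn2-/- difference was −3.55 ± 0.809 (0.0103). Elovl3, a fatty acid elongase, differed by −3.26 ± 0.514 (0.000573) and −3.36 ± 0.585 (0.00198). For Cyp7b1, an oxysterol hydroxylase, the differences were −3.59 ± 0.404 (4.29e-05) and −1.71 ± 0.46 (0.0261), and all 6 of these differences passed in limma over the 4 groups. Among WT mice Cyp4a12a, Cyp4a12b, Ugt2b1, Mup3 and Mup20 fell too, with differences of −2.07, −1.96, −1.46, −0.33 and −0.34. The Cyp4a12 and Mup genes have near-identical copies that can share signal, so that each of these values is uncertain for the single gene.

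Leaving out each array in turn gave 7 to 9 male-biased genes that fell in WT and 2 to 6 in Lcn2-/-, and with slide as a block the counts were 6 and 2. The 2 were other genes: with slide as a block Hsd3b5, Slco1a1, Elovl3 and Cyp7b1 had Lcn2-/- adjusted p of 0.167, 0.0779, 0.0546 and 0.084 in limma, with differences from −5.21 to −2.81, while in WT all 4 passed. In Lcn2-/- the call of Hsd3b5 was lost without Lcn2-/- control 1 or 2 and that of Cyp7b1 without Lcn2-/- control 1 or 2 or Lcn2-/- CCl4 1 or 2, with adjusted p up to 0.0672 and 0.0983. In the fit of the Lcn2-/- groups alone 1 of the 4 calls held, that of Elovl3, and those of Hsd3b5 (limma adjusted p 0.0901), Slco1a1 (0.053) and Cyp7b1 (0.0907) were lost.

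Under CCl4, 12 of 13 male-biased genes were higher in Lcn2-/- than in WT, with a median difference of 0.6, and 1 of them passed, against 0.636% of all genes. Of the female-biased genes, 7 were higher and 6 lower, with a median difference of 0.01, and the median of all genes was 2.06e-05. The male-biased gene that passed was Cyp7b1, at 12.88, 13.82, 14.67, 13.39 and 14.04 in WT CCl4 and 15.11, 14.87, 16.35 and 16.76 in Lcn2-/- CCl4, against 16.83 to 17.7 on all controls. Each Lcn2-/- CCl4 array lay above each WT CCl4 array, and the difference was 2.01 (SE 0.404, 4.03-fold, limma adjusted p 0.0401, exact permutation p 0.0159 with n = 4 and 5). The difference between the responses was 1.88 (SE 0.612, limma adjusted p 1). The call was lost in 11 of 16 fits without 1 array, with adjusted p from 0.0185 to 0.141, and with replicate number as a block (2.08, limma adjusted p 0.0917) and within slide 2 (1.79, 0.173). Among controls, 0 of 13 male-biased genes passed between genotypes.

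Of 13 female-biased genes tested of 16 listed, 7 rose and 1 fell in WT and 5 rose and 1 fell in Lcn2-/-, where 8.01% and 6.57% of all genes passed as higher. The others did not pass. In all, 11 of 13 were higher in either genotype, with a median difference of 1 and 1.17. Sult2a1, a steroid sulfotransferase, was not well above background on any control and measured 5.31 to 8.77 in WT CCl4 and 7.56 to 9.03 in Lcn2-/- CCl4. It was at least 6.02-fold higher in WT and at least 6.59-fold higher in Lcn2-/-. It entered the test only through the CCl4 arrays and so had to differ, and without it 6 and 4 of 12 rose, with medians of 0.76 and 0.74. Hao2, a peroxisomal hydroxyacid oxidase, rose by 4.67 ± 0.596 (SE; limma adjusted p 0.000114) and 4.27 ± 0.679 (0.00103). In controls Hao2 was well above background on 3 of 4 WT and 1 of 3 Lcn2-/- arrays, so that some of its control values lie near background.

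In WT, Cyp3a44, Cyp2b9, Cyp2b13 and Cyp3a16 rose as well, by 3.61, 3.56, 3.01 and 1, and in Lcn2-/- Cyp3a44 and Cyp3a16 rose by 2.97 and 1.17. These cytochrome P450 genes have near-identical copies, so that the single gene is uncertain. Cyp2b9 measured as low as 4.13 on the WT controls, so that the size of its WT rise is uncertain too. Cyp2a4, a female-biased P450, went against its list and fell, with a difference of −1.19 ± 0.309 (SE) for WT (limma adjusted p 0.0169) and −1.3 ± 0.352 for Lcn2-/- (0.027). The WT call of Cyp2a4 was lost with slide as a block (limma adjusted p 0.155) and in the fit of the WT groups alone. Its Lcn2-/- call was lost with slide as a block too, and in 5 of 16 fits without 1 array, with adjusted p up to 0.0931. With slide as a block, 3 female-biased genes rose in WT and 1 in Lcn2-/-, against 7 and 5. That 1 gene in Lcn2-/- was Sult2a1, which entered the test only through the CCl4 arrays and so had to differ.

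**Figure D5:**
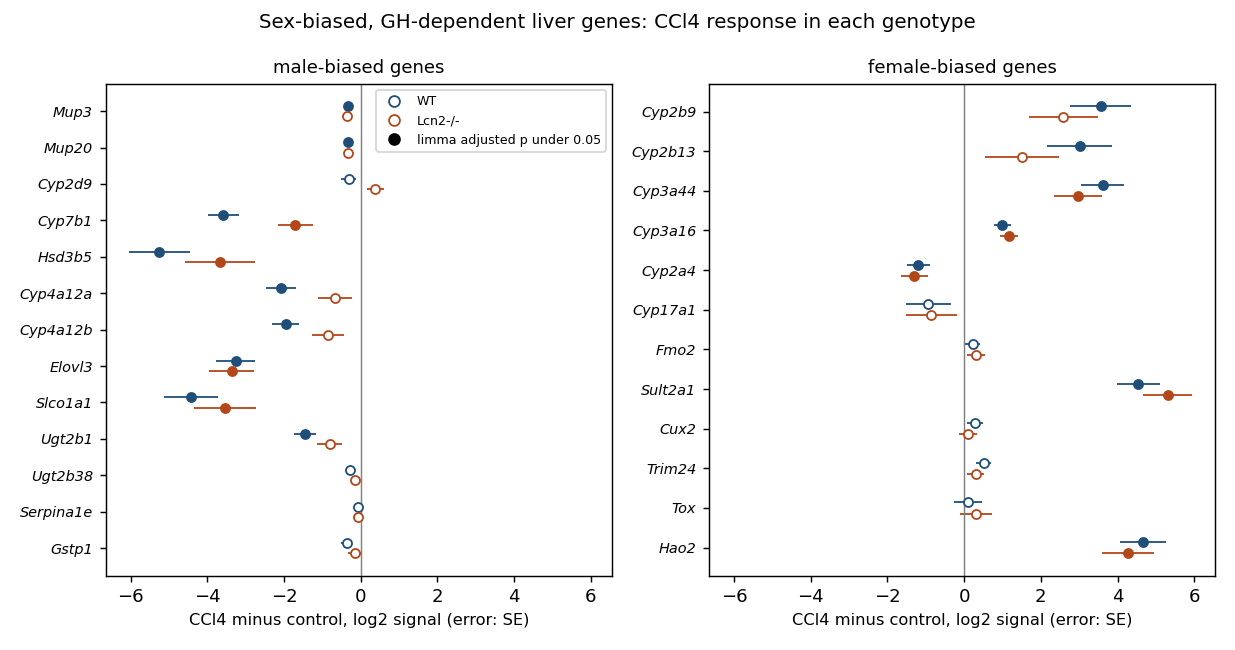
Difference in log2 signal, CCl4 minus control (horizontal axis), with SE for 13 male-biased and 12 of the 13 female-biased genes in WT and Lcn2-/-, filled where limma adjusted p was under 0.05. In WT all 13 male-biased genes lie below 0 and 9 passed, while 6 of the female-biased genes drawn passed above 0 and Cyp2a4 passed below it.

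Of 5 lipid genes that rise when hepatic GHR or STAT5 is lost, 2 rose in WT and 3 in Lcn2-/-, against the same 8.01% and 6.57% of all genes. Cd36, a fatty acid importer, rose by 1.37 ± 0.416 (SE) for WT (limma adjusted p 0.0363) and 1.76 ± 0.473 for Lcn2-/- (0.0258). Vldlr, a lipoprotein receptor, rose by 1.2 ± 0.387 (0.047) and 1.77 ± 0.441 (0.0171). The WT calls of Cd36 and Vldlr were lost with no filter on dim probes, and with slide as a block, where the WT estimate rests on WT CCl4 1. They were also lost in 7 and 10 of 16 fits without 1 array, with adjusted p up to 0.118 and 0.152. The Lcn2-/- calls were lost in 5 and 2, with adjusted p up to 0.104 and 0.0981, and also with slide as a block and in the fit of the Lcn2-/- groups alone.

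Mogat1, a monoacylglycerol acyltransferase, rose by 1.38 in Lcn2-/- (SE 0.336, limma adjusted p 0.0153), a call lost without Lcn2-/- control 2 or 3 (adjusted p up to 0.0626), without WT control 3 and Lcn2-/- control 3 together (0.0667), with slide as a block and in the fit of the Lcn2-/- groups alone. It was lower on the Lcn2-/- controls, at 7.27, 6.78 and 6.25, than on the WT controls, at 9.26, 8.98, 8.99 and 9.23. This genotype difference was −2.35 (SE 0.336, 5.1-fold, limma adjusted p 0.00277) and passed in 16 of 16 fits without 1 array. Of 10 transcription factors that act on GH target genes, among them Hnf4a, Cebpa and Foxo1, 0 passed in either response, with medians of 0.03 and −0.16.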

How the data were processed

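Liver RNA of 16 mice was labelled and hybridised to 1-colour Agilent arrays, read with Feature Extraction 10.7.3.1. The deposited scanner files give intensity per spot on a linear scale, not normalized between arrays, after background subtraction and detrending by that software. The authors also deposited log2 values, used as an alternative. They matched quantile-normalized log2 of median signal minus local background within 0.05 for 99.86% of values.

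Of 62976 spots on an array, 3671 were control spots and not used. For the 59305 gene spots, processed signals were put on the log2 scale and quantile normalized over 16 arrays, outlier spots were then left out, and spots of a probe were averaged to 55681 probes, less 121 with no usable spot on some array. A probe was tested if 3 or more arrays had it well above background (33014), and the highest-mean probe for a symbol gave 24357 genes. RefSeq names (GRCm38.p6) matched 49.8% of gene spots and 61% of genes tested. Probe positions are on mm9, and exons or UTRs were not analysed here. Promoter windows are from RefSeq on GRCm38.p6.

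Limma 3.58.1 in R 4.3.3 was fitted with 1 mean for each of 4 groups and 5 contrasts, with Benjamini-Hochberg adjustment within a contrast and a threshold of 0.05, and was tested on simulated data. The number of arrays limits the precision, and p values measure the spread between these animals. The labels do not say whether replicate numbers pair animals. For deviations from group means, r of same-numbered WT and Lcn2-/- controls was 0.23, 0.37 and 0.55, which does not settle it. Between same-numbered WT CCl4 and Lcn2-/- CCl4 arrays r ran from −0.22 to 0.25. Between controls and CCl4 arrays it ran from −0.07 to 0.17 in WT and from 0.01 to 0.02 in Lcn2-/-. Alternatives were 75th percentile scaling, normexp, the log2 table, no filter on dim probes, slide or replicate number as a block, single slides, array weights, the mean over probes, the groups compared alone, and leaving out arrays. Exact permutation tests were two-sided. Named were all 9 axis genes, of each list up to 3 genes with the largest rise and 3 with the largest fall past the threshold, every list gene past it between genotypes, and the 3 genes most like Igfals. 1 gene that this rule names, counted in its list, is not reported here. Other genes named beside them were chosen after their values were seen. The 9 genes and the lists were chosen with earlier results of these data known.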

Additional observations from a re-analysis of the deposited data

Results flagged for a closer look

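Of 78 groups of at least 4 arrays over 26 genes, 6 held an array far from the rest of its group by Dixon's test, which chance gives in about 1 in 20 groups. Stat5a measured 12.87 on WT CCl4 5, against 11.77 to 12.04 on the other 4. Hsd3b5 measured 17.14 on WT control 3, against 17.77 to 17.87 on the other controls, and 14.64 on WT CCl4 3, against 11.48 to 12.01 on the other 4 arrays of its group. Lyn measured 9.73 on WT control 3, against 9.26 to 9.34. Hao2 measured 10.87 on Lcn2-/- CCl4 2, against 8.77 to 9.02. Pappa measured 4.84 on WT control 2, against 4.53 on the other 3, all of them not well above background. Groups of 3 arrays were not tested.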

How the results depend on the processing

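Groups held 3 to 5 arrays, and slide and CCl4 separate through WT CCl4 1 alone. A fit with slide as a block thus takes its slide difference from few arrays, and its WT response from that 1 CCl4 array. In this fit, of the named calls in the Lcn2-/- response that of Pappa and that of Sult2a1 held. Both genes entered the test only through the CCl4 arrays and so had to differ. Signal near background limits Pappa, Sult2a1 and Hao2 in controls, and low signal on the WT controls limits Cyp2b9. In both CCl4 responses array weights raised the count of genes past the threshold and a slide block lowered it, and here and below the cause was not tested. The Lcn2-/- response could not be had within a slide. Within slide 1 the WT response sets 4 WT controls against WT CCl4 1 alone. Counts of genes past the threshold within slide 1 thus hold no spread between CCl4 animals. They are listed below for completeness, and no conclusion is drawn from them. Alternatives for the Ghr transcript shift and for the relations of Igf1 were chosen after seeing the data.

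In the WT response, 4094 genes passed, 1302 with slide as a block, 703 within slide 1, 7054 with array weights and 2498 to 5110 without 1 array, lowest without WT control 1 and highest without WT control 3. Of the 9 axis genes, 1 passed, 2 under 75th percentile scaling, under normexp, with array weights and with the mean over probes, 0 within slide 1 and with the replicate block, and 0 to 1 without 1 array. Of female-biased genes 7 rose, 3 with slide as a block and within slide 1.

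In the Lcn2-/- response, 2968 genes passed, 425 with slide as a block, 6954 with array weights, 1757 with the groups compared alone and 1683 to 3200 without 1 array, lowest without Lcn2-/- control 2. Of male-biased genes 4 fell, 7 under 75th percentile scaling, with array weights and without WT control 3 and Lcn2-/- control 3, 2 with slide as a block, 1 with the groups compared alone and 2 to 6 without 1 array, lowest without Lcn2-/- control 1 or 2. Of female-biased genes 5 rose, and with slide as a block 1 did, Sult2a1, which had to differ.

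Between genotypes under CCl4, 155 genes passed, 87 within slide 2, 92 with the replicate block, 323 with array weights, 255 without WT control 3 and Lcn2-/- control 3, 93 with the groups compared alone and 76 to 187 without 1 array. Between control groups, 129 passed, 216 with no filter on dim probes and 1270 with array weights. The responses differed for 13 genes, 7 under normexp, 3 in the authors' log2 table, 6 with the replicate block and 8 to 15 without 1 array.

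Under 75th percentile scaling the median of all genes was −0.16 in the WT and −0.14 in the Lcn2-/- response, and the share of calls that were higher was 30.7% against 47.7% and 36.3% against 53.9%. For the Ghr long minus short shift, WT control 3 and Lcn2-/- control 3, the 2 controls with the lowest array weights, were left out together. The shift was then 0.36 in WT (exact permutation p 0.0714) and 0.5 in Lcn2-/- (exact permutation p 0.0667). It was 0.32 to 0.48 and 0.5 to 0.7 without 1 array. The r of Igf1 and Stat5a was −0.36 under 75th percentile scaling.

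Differences that turned sign were all of axis genes that did not pass. Cish in the WT response (0.05) was −0.06 under 75th percentile scaling, −0.05 with slide as a block and −0.05 within slide 1, and −0.5 to 0.6 without 1 array. Ghr in the Lcn2-/- response (0.01) was −0.17 under 75th percentile scaling, −0.22 with slide as a block, −0.03 with the replicate block, −0.07 with array weights, −0.29 with the mean over probes and −0.1 without the 2 controls, and −0.11 to 0.1 without 1 array. Stat5b in the Lcn2-/- response (0.02) was −0.03, −0.23, −0.01 and −0.1 with the first 4 of these settings, and −0.16 to 0.16 without 1 array. Without 1 array the Lcn2-/- response ranged from −0.83 to 0.39 for Socs2, −1.03 to 0.13 for Cish and −0.54 to 0.34 for Bcl6.

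Between genotypes under CCl4, Bcl6 (−0.25) was 0.15 with the replicate block and −0.61 to 0.15 without 1 array, and the range without 1 array was −0.01 to 0.17 for Ghr, −0.17 to 0.04 for Stat5b and −0.44 to 0.08 for Prlr. Between control groups, Ghr (−0.07) was 0.04 under 75th percentile scaling and −0.16 to 0.04 without 1 array. Igf1 (0.02) was −0.01 under normexp and in the authors' log2 table, −0.02 with the replicate block, −0.06 with array weights and −0.04 to 0.08 without 1 array. Igfals (0.05) was −0.14 with array weights, −0.02 without the 2 controls and −0.03 to 0.19 without 1 array, Bcl6 (−0.97) was 0.03 with array weights, and Socs2 was −0.27 to 0.95 without 1 array. For the difference of the responses, Stat5a (−0.06) was 0.01 in the authors' log2 table, 0.02 with the replicate block and −0.22 to 0.14 without 1 array, and Bcl6 (0.73) was −0.05 with array weights. Without 1 array it was −0.02 to 0.17 for Igf1, −1.21 to 0.09 for Cish and −0.06 to 0.26 for Stat5b.

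Over all genes and settings, 2021 values of single genes and 386 other values kept their direction and side of the threshold, or for a count stayed within 1.5 times, 61 turned sign, 46 counts or other values moved beyond that, 5 passed newly and 161 and 18 no longer passed. The replicate block was fitted over all groups. Whether the numbers pair arrays is not known, and WT CCl4 5, the sole array numbered 5, was in effect left out. This fit ended the calls of Igfals (−0.87), Socs5 (1.04) and Vldlr (0.95) in the WT response and of Irs2 (0.91) and Cyp7b1 (2.08) between genotypes under CCl4, and changed no other call of a named gene.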
